A study of Mus musculus with 6 samples.

Results

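The insulin-like growth factor (IGF) axis was followed in RNA sequencing libraries labelled as vascular endothelial cells of mouse lung. It was taken as 9 named genes: the ligand Igf1, the receptors Igf1r and Igf2r, and the binding protein genes Igfbp2 to Igfbp7. Genes were kept where the identifier was well formed and all 6 expression values could be read, and 6 of the 9 met that, out of 19033 genes kept in all. Igfbp2 had 5 readable values and is described apart from the others. Igf2r and Igfbp3 were not analysed here.

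The libraries came from 3 old and 3 young C57/BL6 mice, 1 per mouse, and every mouse had received acid injury to the lung. The labels give age only as old or young, and uninjured lungs were not analysed here. Per the labels' protocols, tissue was taken out and homogenized for RNA, and no step that isolates cells is named. The implied depth was 11381122 to 17931463 fragments per library, and levels are given as FPKM, fragments scaled to gene length and library total.

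IGF1 is a secreted growth factor that signals through the IGF1 receptor, a tyrosine kinase that feeds the PI3K-AKT and MAP kinase branches and promotes growth and survival. The IGF2 receptor has no kinase and clears IGF2 from the cell surface. Secreted binding proteins hold IGFs in blood and tissue, prolong their life and keep them from or bring them to the receptor, and proteases release the ligand by cutting them. In the lung, mesenchymal cells are a known source of IGF1, and IGFBP7 is a known product of vessel walls.

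The cell type label was checked against marker genes, because the libraries of the age groups differed in more than the IGF axis. Markers are counted as higher or lower at a limma adjusted p under 0.05, in the fit given below. Over all genes tested, 2.95% were higher and 2.03% lower by that rule. Of 13 tested endothelial markers, 11 were lower in old mice. The list summed to 45.7 to 161 FPKM there against 559 to 1526 FPKM in the young. Its first genes, the junction genes Pecam1 and Cdh5, reached at most 7.90 and 8.84 FPKM in any old library and at least 40.0 and 59.2 FPKM in any young one, so the defining markers were low but present in libraries labelled as endothelial. Of 8 tested fibroblast markers, 7 were higher in old mice, with sums of 2123 to 4899 FPKM against 128 to 229 FPKM, and the collagen genes Col1a1 and Col1a2 were at 141 FPKM or more in each old library and 12.8 FPKM or less in each young one. Mesothelial markers, Msln and Upk3b among them, summed to 171 to 456 FPKM against 9.33 to 40.8 FPKM (3 of 6 tested genes higher). An airway epithelial list with Epcam and Krt8 summed to 1238 to 1556 FPKM against 111 to 257 FPKM (3 of 4 tested genes higher). Both are general epithelial genes, so the sum is not particular to the airway. Young mice 2 and 3 stood apart from young mouse 1 by neutrophil markers, led by S100a8 and S100a9, at 23756 and 24075 FPKM against 53.3 FPKM, and by macrophage and monocyte markers, led by Cd68 and Lyz2, at 3247 and 9519 FPKM against 194 FPKM. Smooth muscle and pericyte markers, Acta2 and Myh11 among them, set young mouse 2 apart (1303 FPKM against 66.6 and 67.6 in other young mice). The old mice lay between, at 631 to 816 FPKM, and 0 of 6 tested genes passed. Old mouse 2 stood apart by T and natural killer markers (1758 FPKM against 76.7 and 270.0 FPKM in the other old mice). Cd3e and Cd3d, first on that list, were at 6.73 and 13.1 FPKM in old mouse 2, a small part of its sum. In such libraries, fewer cells of a type and less RNA per cell cannot be told apart.

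Igfbp2 and Igfbp6 showed the widest gaps between the age groups, and a start region of each is shown here for that reason. Each is the 250 bases before a RefSeq transcription start in GRCm38.p6, on the gene's own strand, and neither window holds an exon of GENCODE M21, the annotation used for positions. RefSeq lists a further start for Igfbp2, whose window is not shown because 65 of its bases are in an M21 exon. The window of Igf1 is not shown because all 250 of its bases are in M21 exons of the gene. Capitals mark matches to short promoter motifs that were searched for on both strands, and none of the matches shown overlap each other. The first motif was TATAAA, the usual core of a promoter bound by the TATA-binding protein. The next was the CCAAT box, searched by the letters in its name. The last was the GC box, which is known as a site for Sp family factors and was searched as GGGCGG.
Igfbp2, chr1:72824230-72824479, plus strand: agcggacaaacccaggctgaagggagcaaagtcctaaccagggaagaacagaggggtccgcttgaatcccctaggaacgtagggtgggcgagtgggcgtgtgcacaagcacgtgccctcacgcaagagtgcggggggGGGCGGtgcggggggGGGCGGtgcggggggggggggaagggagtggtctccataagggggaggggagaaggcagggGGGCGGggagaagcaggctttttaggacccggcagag
Igfbp6, chr15:102143936-102144185, plus strand: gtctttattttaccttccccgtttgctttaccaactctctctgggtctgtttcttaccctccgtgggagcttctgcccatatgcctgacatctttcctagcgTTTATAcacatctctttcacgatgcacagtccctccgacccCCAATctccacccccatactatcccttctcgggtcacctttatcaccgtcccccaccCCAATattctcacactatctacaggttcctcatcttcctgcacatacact
The region shown for Igfbp2 held 3 GC boxes and was 67.2% G and C, while the window of its further start held 0 GC boxes and was 56.4% G and C. Igfbp6 held 2 CCAAT boxes and 1 TATA box on the opposite strand, and was 49.6% G and C. Over 32851 windows of the same length in the RefSeq table, a TATA box was in 12.4%, a CCAAT box in 33.8% and a GC box in 32.7%, and the median share of G and C was 52.4%. A match describes the letters and is not evidence of a bound factor.

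Of the 6 IGF axis genes tested, 2 rose in old mice (Igf1 and Igfbp6), 0 fell and 4 did not pass, by limma on log2(FPKM + 1) with a Benjamini-Hochberg adjusted p of 0.05 over 10010 genes. Over all genes tested, 4.98% passed in either direction, with 2.95% higher and 2.03% lower in old mice. At an unadjusted p of 0.05, 3 of the 6 were higher and 0 lower, against 11.3% and 11.9% of all genes and 23.1% in either direction. The old and young libraries did not overlap for 4 of the 6, with Igf1, Igfbp4 and Igfbp6 above and Igf1r below, while 31.1% of all genes did not overlap (14.5% with old above and 16.7% with old below). The median log2 fold change of the 6 was 0.47, against -0.011 over all genes. A log2 fold change here is the old mean minus the young mean of log2(FPKM + 1), and for weakly expressed genes it is smaller than the change of FPKM itself.

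**Figure D1:**
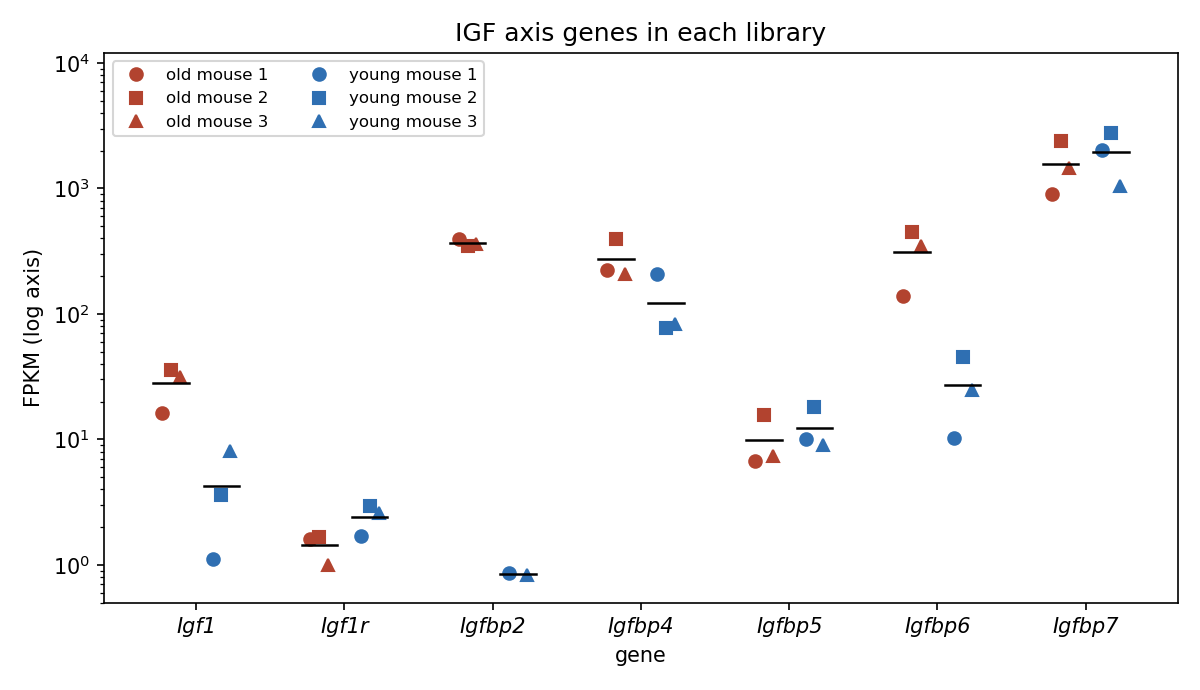
FPKM (log axis) of 7 IGF axis genes in each of 3 old (red) and 3 young (blue) libraries, with a black line at the mean of each group; 1 young value of Igfbp2 could not be read. Igfbp2 stands at 346 to 397 FPKM in old and under 1 FPKM in the readable young libraries, while the points of Igfbp5 and Igfbp7 overlap between the groups.

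The ligand gene Igf1 (ENSMUSG00000020053; chromosome 10, 87858265 to 87937042 in GENCODE M21 on GRCm38) was higher in every old library than in any young one. It stood at 16.1, 36.0 and 31.6 FPKM (old mice 1, 2 and 3) and 1.11, 3.58 and 8.06 FPKM (young mice 1, 2 and 3). The young libraries spread over 7.29-fold, with young mouse 1 the lowest, and the old over 2.23-fold. Means were 27.9 ± 10.4 FPKM for old and 4.25 ± 3.52 FPKM for young (SD, n = 3 each), resting on 2108 to 5605 fragments in old and 194 to 1189 in young libraries. The log2 fold change was 2.63 ± 0.57 (SE, limma adjusted p = 0.0499), or 6.17-fold.

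The call for Igf1 lay at the edge of the threshold. Its direction was the same in all 16 alternatives, with log2 fold changes of 2.09 to 3.70. The call ended in 9 of them: at pseudocounts of 0.1 and 0.01, without a filter, with median-ratio scaling, without any 1 of the old mice, and without young mouse 1 or young mouse 2 (adjusted p 0.0231 to 0.145 over all 16). The sums of fibroblast and mesothelial markers given earlier moved the same way between the age groups. Within the young mice, the macrophage and monocyte sum had the order of Igf1, at 194, 3247 and 9519 FPKM (young mice 1, 2 and 3). So did the neutrophil, T and natural killer, and B and plasma sums. The macrophage and monocyte sum did not follow Igf1 in old mice 1, 2 and 3, at 850, 1312 and 2234 FPKM. There the fibroblast sum (2123, 4899 and 3265 FPKM) and the mesothelial sum (171, 456 and 305 FPKM) had the order of Igf1. So did the alveolar epithelial sum. Within the young mice, the fibroblast, mesothelial and alveolar epithelial sums did not have that order. The part of these cell types in the difference of Igf1 was not tested.

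The receptor gene Igf1r (ENSMUSG00000005533; chromosome 7, 67952827 to 68233668) was the least abundant IGF axis gene in the old libraries. It stood at 1.62, 1.67 and 0.993 FPKM (old mice 1, 2 and 3) and 1.69, 2.92 and 2.57 FPKM (young mice 1, 2 and 3). All old values lay below all young ones, but old mouse 2 and young mouse 1 were nearly level. Because its exons span 16791 bases, these low levels still rested on 299 to 760 fragments per library. Means were 1.43 ± 0.377 and 2.39 ± 0.631 FPKM (SD, n = 3 each), and the log2 fold change of -0.48 ± 0.26 (SE, 95% interval -1.10 to 0.15) did not pass (limma adjusted p = 0.323).

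Igfbp2 showed the widest gap of any IGF axis gene. IGFBP2 is a binding protein that can also bind integrins, and in mouse lung its gene is a known mark of alveolar type 1 cells. The gene (ENSMUSG00000039323; chromosome 1, 72824503 to 72852474) stood at 397, 346 and 363 FPKM (old mice 1, 2 and 3) and 0.855 and 0.836 FPKM (young mice 1 and 3). The cell of young mouse 2 could not be read and was not repaired. The old libraries agreed within 1.15-fold, closer than for any other IGF axis gene. Counts behind the values were 7277 to 12028 fragments in the old libraries and 28 and 23 fragments in the young.

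The mean of Igfbp2 was 369 ± 26.0 FPKM for the old mice (SD, n = 3) and 0.845 FPKM for the 2 readable young mice, a ratio of 436. The lowest old value was 405 times the highest readable young value. Igfbp2 was added to the fit after its values were seen, with young mouse 2 missing for this gene. The log2 fold change was then 7.64 ± 0.25 (SE, limma adjusted p = 0.000944, 0.000482 to 0.0228 over 16 alternatives), and it passed in all 16. In 3 of those settings only 1 readable young library was left, which was assumed to vary like the other libraries, and over the other 13 the adjusted p reached 0.0163. Alveolar epithelial markers summed to 80.9 to 85.5 FPKM in old mice and to 8.44, 76.6 and 27.9 FPKM (young mice 1, 2 and 3). Of 5 tested genes 1, Pdpn, passed as higher (limma adjusted p = 0.03), beside 2.95% of all genes. Among genes of that list known from alveolar type 1 cells, Pdpn was at 16.3 to 23.2 FPKM (old mice) and 1.58 to 6.52 FPKM (young mice), Aqp5 at 1.32 to 7.80 FPKM and 0 to 0.696 FPKM, and Ager overlapped, at 1.80 to 4.10 FPKM and 1.24 to 6.35 FPKM. Of its surfactant genes, Sftpd was at 51.0 to 60.6 FPKM (old mice) and 3.83, 55.4 and 22.4 FPKM (young mice 1, 2 and 3). Sftpb was listed at 0 in 5 libraries and at 0.0982 FPKM in young mouse 2. Sftpa1 was at most 0.0529 FPKM in old mice and 6.74 FPKM in young mouse 2. Abca3, on the same list but not tested, went the other way without overlap. It was at 0.28 to 0.456 FPKM (old mice) and 0.725 to 1.75 FPKM (young mice). The airway epithelial list, with its general epithelial genes, was high in the same old libraries (1238 to 1556 FPKM). The part of any cell type in the level of Igfbp2 was not tested.

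Igfbp6 was the other binding protein gene that rose. IGFBP6 is known for binding IGF2 more tightly than IGF1. The gene (ENSMUSG00000023046; chromosome 15, 102144362 to 102149511) stood at 140.4, 449 and 345 FPKM (old mice 1, 2 and 3) and 10.2, 45.7 and 24.6 FPKM (young mice 1, 2 and 3). The groups did not overlap, and the lowest old value was 3.07 times the highest young one. Means were 311 ± 157 and 26.9 ± 17.8 FPKM (SD, n = 3 each). On the log2 scale it rose by 3.56 ± 0.63 (SE, limma adjusted p = 0.03), or 11.8-fold. The direction was the same in all 16 alternatives (log2 fold changes 3.02 to 4.64), and the call ended in 5: without a filter, and when old mouse 2 or 3, or young mouse 1 or 3, was left out (adjusted p 0.0187 to 0.102 over the 16). Fibroblast, mesothelial and airway epithelial marker sums moved the same way, and their part was not tested.

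Igfbp4 did not pass the threshold. IGFBP4 is known as an inhibitor of IGF action that the protease PAPP-A cuts. Its gene (ENSMUSG00000017493; chromosome 11, 99041244 to 99054392) stood at 222, 396 and 207 FPKM (old mice 1, 2 and 3) and 206, 76.7 and 82.4 FPKM (young mice 1, 2 and 3). The old values lay above the young ones, but young mouse 1 reached the lowest old library within 1.01-fold and stood well above the other young mice. Means were 275 ± 105 and 122 ± 73.1 FPKM (SD, n = 3 each). The difference on the log2 scale was 1.26 ± 0.46 (SE, limma unadjusted p = 0.0301, adjusted p = 0.168). Against young mouse 1 alone the log2 fold change was 0.35, and without young mouse 1 it was 1.71 (limma adjusted p = 0.0681).

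Igfbp5 and Igfbp7 overlapped between the age groups. Igfbp5, whose protein binds extracellular matrix, lies on chromosome 1 (ENSMUSG00000026185; 72857932 to 72874884). It stood at 6.73, 15.6 and 7.38 FPKM (old mice 1, 2 and 3) and 10.0, 18.2 and 9.02 FPKM (young mice 1, 2 and 3). In each age group mouse 2 was the highest. The log2 fold change was -0.33 ± 0.40 (SE, 95% interval -1.27 to 0.61, limma adjusted p = 0.647). Igfbp5 and Igfbp2 are neighbours that point towards each other with 5457 bases between them, and the large gap seen for Igfbp2 was not seen in the values of Igfbp5.

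Igfbp7 (ENSMUSG00000036256; chromosome 5, 77349240 to 77408041) encodes a secreted relative of the other binding proteins that holds IGFs weakly and is deposited around vessels. It was the most abundant IGF axis gene in all 6 libraries and ranked 16 by mean FPKM among the 10010 genes tested. It stood at 895, 2381 and 1454 FPKM (old mice 1, 2 and 3) and 2023, 2786 and 1049 FPKM (young mice 1, 2 and 3). The groups overlapped, and the log2 fold change was -0.31 ± 0.50 (SE, 95% interval -1.49 to 0.87, limma adjusted p = 0.738). Endothelial markers in the same libraries had a median log2 fold change of -3.16. Of its 1209 exon bases, 85 are shared with Polr2b on the opposite strand, and reads there cannot be assigned without strand.

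**Figure D2:**
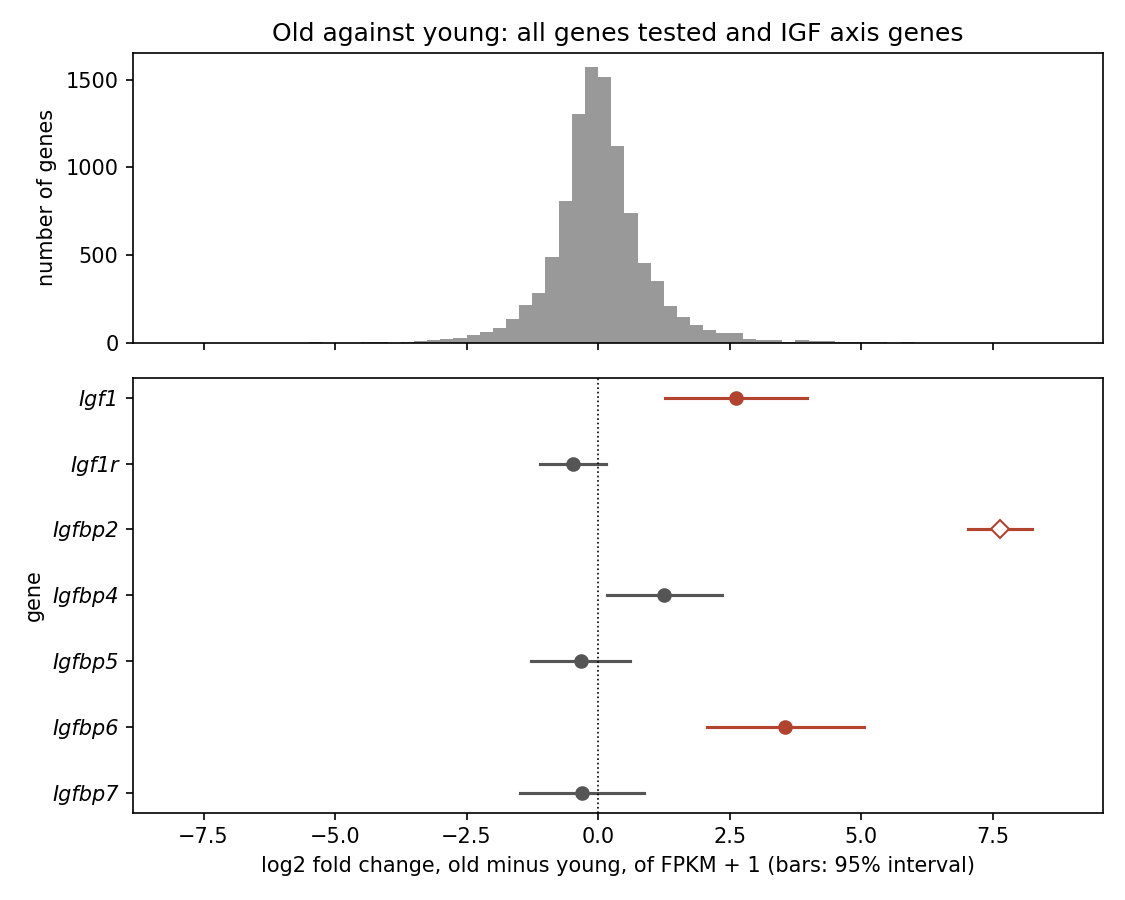
Upper panel, log2 fold changes (old minus young, of FPKM + 1) of the 10010 genes tested, as numbers of genes; lower panel, the same quantity for 7 IGF axis genes with 95% intervals, red where the limma adjusted p was under 0.05. Igfbp2 (open diamond, fitted without young mouse 2) lies at 7.64, Igfbp6 at 3.56 and Igf1 at 2.63, while the intervals of Igf1r, Igfbp5 and Igfbp7 cross 0.

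The order of levels, which FPKM allows since it is per length, changed between the groups mainly through Igfbp2 and Igf1. In old mice the order of mean FPKM was Igfbp7, Igfbp2, Igfbp6, Igfbp4, Igf1, Igfbp5 and Igf1r. The ranges of Igfbp2 and Igfbp6 overlapped, as did those of Igfbp6 and Igfbp4, so these neighbours did not differ beyond their spread. In young mice the order was Igfbp7, Igfbp4, Igfbp6, Igfbp5, Igf1, Igf1r and Igfbp2. There the ranges of Igfbp6 and Igfbp5 overlapped, though Igfbp6 was above Igfbp5 within each young library. The ranges of Igf1 and Igf1r overlapped too, and young mouse 1 had more Igf1r than Igf1. Old mouse 2 was the highest old library for all 6 genes tested and the lowest for Igfbp2.

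The summed level of binding protein transcripts overlapped between the groups, while the shares of Igfbp6 and Igfbp7 in it did not. Igfbp4 to Igfbp7 together came to 1264, 3241 and 2013 FPKM (old mice 1, 2 and 3) and 2249, 2926 and 1165 FPKM (young mice 1, 2 and 3). Igfbp7 made up 72.2 ± 1.35% of that sum in old and 91.7 ± 3.03% in young mice (SD, n = 3 each). Igfbp6 made up 14.0 ± 3.00% and 1.38 ± 0.842%, and Igfbp4 13.3 ± 3.73% and 6.28 ± 3.34% (SD, n = 3 each). The shares of Igfbp6 and Igfbp4 were higher in each old library than in any young one, while that of Igfbp5 overlapped and stayed under 1% in all 6.

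With Igfbp2 counted in, in the 5 libraries where it could be read, it made up 23.9%, 9.65% and 15.3% of the sum in old mice 1, 2 and 3. In young mice 1 and 3 it made up 0.0380% and 0.0716%. Igfbp7 then held 53.9%, 66.4% and 61.2% in old mice 1, 2 and 3, and 89.9% and 90.0% in young mice 1 and 3. The share of Igfbp4 then overlapped, at 8.72% to 13.3% in old mice and 7.06% to 9.15% in young, with old mouse 3 below young mouse 1. These shares were not tested, since they are sums over chosen genes.

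**Figure D3:**
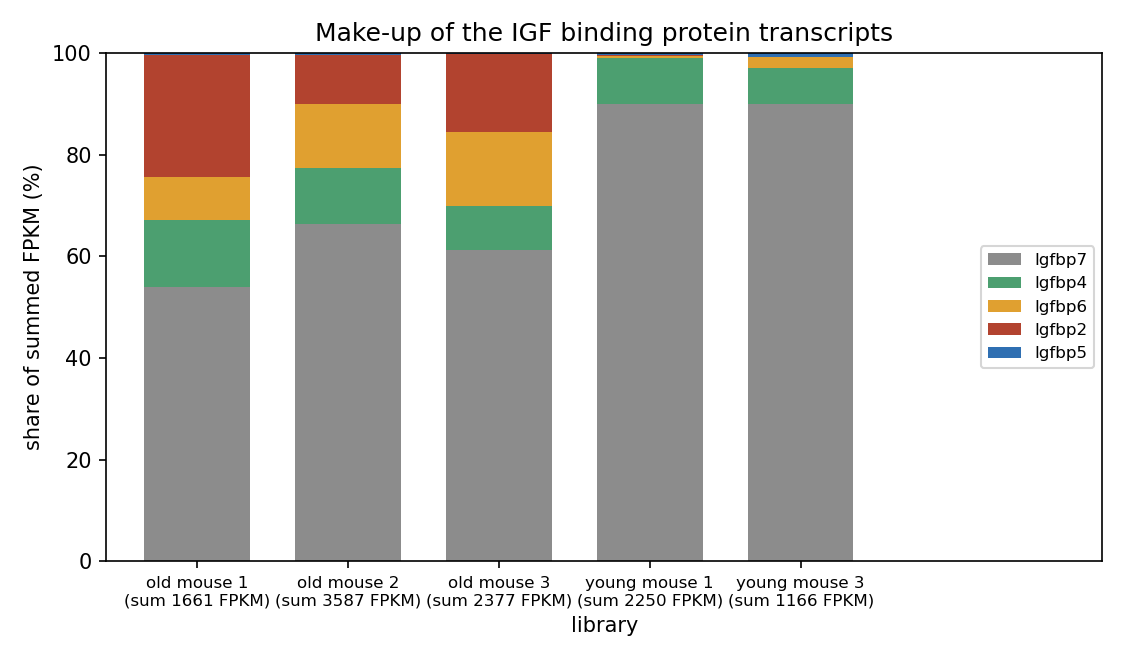
Share (%) of each of 5 binding protein genes in their summed FPKM, 1 bar for each of the 5 libraries in which Igfbp2 could be read, with the sum in FPKM under the bar. Igfbp7 fills 53.9% to 66.4% of the old bars and about 90.0% of the young, and Igfbp2 fills 9.65% to 23.9% of the old.

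Most genes around the IGF axis did not pass. Of 70 listed, 45 were intact with a mean FPKM of at least 1, and 3 of these rose, 1 fell and 41 did not pass, beside 2.95% and 2.03% of all genes, with a median log2 fold change of -0.26 against -0.011 over all genes tested. At an unadjusted limma p of 0.05, 8 of the 45 were higher and 10 lower, against 11.3% and 11.9% of all genes. With young mouse 1 as the only control, 0 of 45 passed against 4.16% of all genes, and 12 had an unadjusted limma p under 0.05 against 23.2% of all genes. Of the 25 not tested, 11 had a lower mean FPKM and 14 had no intact row.

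Among the ligands and receptors of that list, 0 of the 4 tested genes passed in limma, and 1 had an unadjusted p under 0.05. Igf2, the other IGF ligand, stood at 6.65, 11.7 and 2.46 FPKM (old mice 1, 2 and 3) and 2.07, 11.1 and 1.97 FPKM (young mice 1, 2 and 3). Mouse 2 was the highest in both groups, and the log2 fold change was 0.54 ± 0.68 (SE, limma adjusted p = 0.664). M6pr, the other mannose 6-phosphate receptor, had a log2 fold change of -0.34 ± 0.25 (limma adjusted p = 0.445). The insulin receptor gene Insr, named after its values were seen, ranged over 1.56 to 2.08 FPKM (old mice) and 4.54 to 15.6 FPKM (young mice), and its log2 fold change of -1.67 ± 0.41 did not pass (limma adjusted p = 0.0679).

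Downstream of the receptors, 1 of 29 tested genes passed, beside 4.98% of all genes. Grb14, an adaptor known to restrain insulin receptor signalling, stood at 3.19, 3.56 and 3.69 FPKM (old mice 1, 2 and 3) and 0.322, 0.699 and 0.271 FPKM (young mice 1, 2 and 3). It rose by 1.66 ± 0.24 on the log2 scale (SE, limma adjusted p = 0.018). It no longer passed when any 1 old mouse or young mouse 3 was left out, with a block on the mouse number, or when young mouse 1 was the only control (limma adjusted p 0.0137 to 0.078 across 15 settings). In the PI3K, AKT and mTOR branch 0 of 15 passed in limma (4 at an unadjusted p under 0.05), with log2 fold changes of -1.16 to 0.84, and its most abundant gene Eif4ebp1, which restrains translation, was at -0.41 ± 0.27. In the MAP kinase branch 0 of 6 passed (2 at an unadjusted p under 0.05), with Mapk3 at -1.13 ± 0.28 (limma adjusted p = 0.0672).

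Proteins that share the binding proteins' amino-terminal domain held the remaining calls, with 2 of 9 tested genes higher and 1 lower, beside 2.95% and 2.03% of all genes. At an unadjusted limma p of 0.05, 5 of the 9 were higher and 2 lower, against 11.3% and 11.9% of all genes. Ccn5, a matricellular protein gene, stood at 15.4, 45.1 and 25.01 FPKM (old mice 1, 2 and 3) and 1.61, 0.636 and 0.837 FPKM (young mice 1, 2 and 3). It rose by 3.76 ± 0.41 on the log2 scale (SE, limma adjusted p = 0.0076). The serine protease gene Htra3 rose by 2.87 ± 0.35 (limma adjusted p = 0.0112), from 2.63 to 3.51 FPKM (young mice) to 21.1 to 49.0 FPKM (old mice). Of the settings tried, both missed the threshold only with young mouse 1 as the single control (adjusted p = 0.0535 and 0.0596).

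Crim1, a membrane protein that binds bone morphogenetic proteins, moved the other way. It stood at 3.43, 6.26 and 5.54 FPKM (old mice 1, 2 and 3) and 20.96, 16.5 and 24.2 FPKM (young mice 1, 2 and 3), with no overlap. Its log2 fold change was -1.84 ± 0.28 (SE, limma adjusted p = 0.0207). It no longer passed when any 1 old mouse, young mouse 1 or young mouse 3 was left out, with a block on the mouse number, or when young mouse 1 was the only control (limma adjusted p 0.0161 to 0.0751 across 16 settings). Of the 3 proteases and protease inhibitors tested, 0 passed in limma (1 at an unadjusted p under 0.05), and the lysosomal protease gene Ctsd was at -0.58 ± 0.33.

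**Figure D4:**
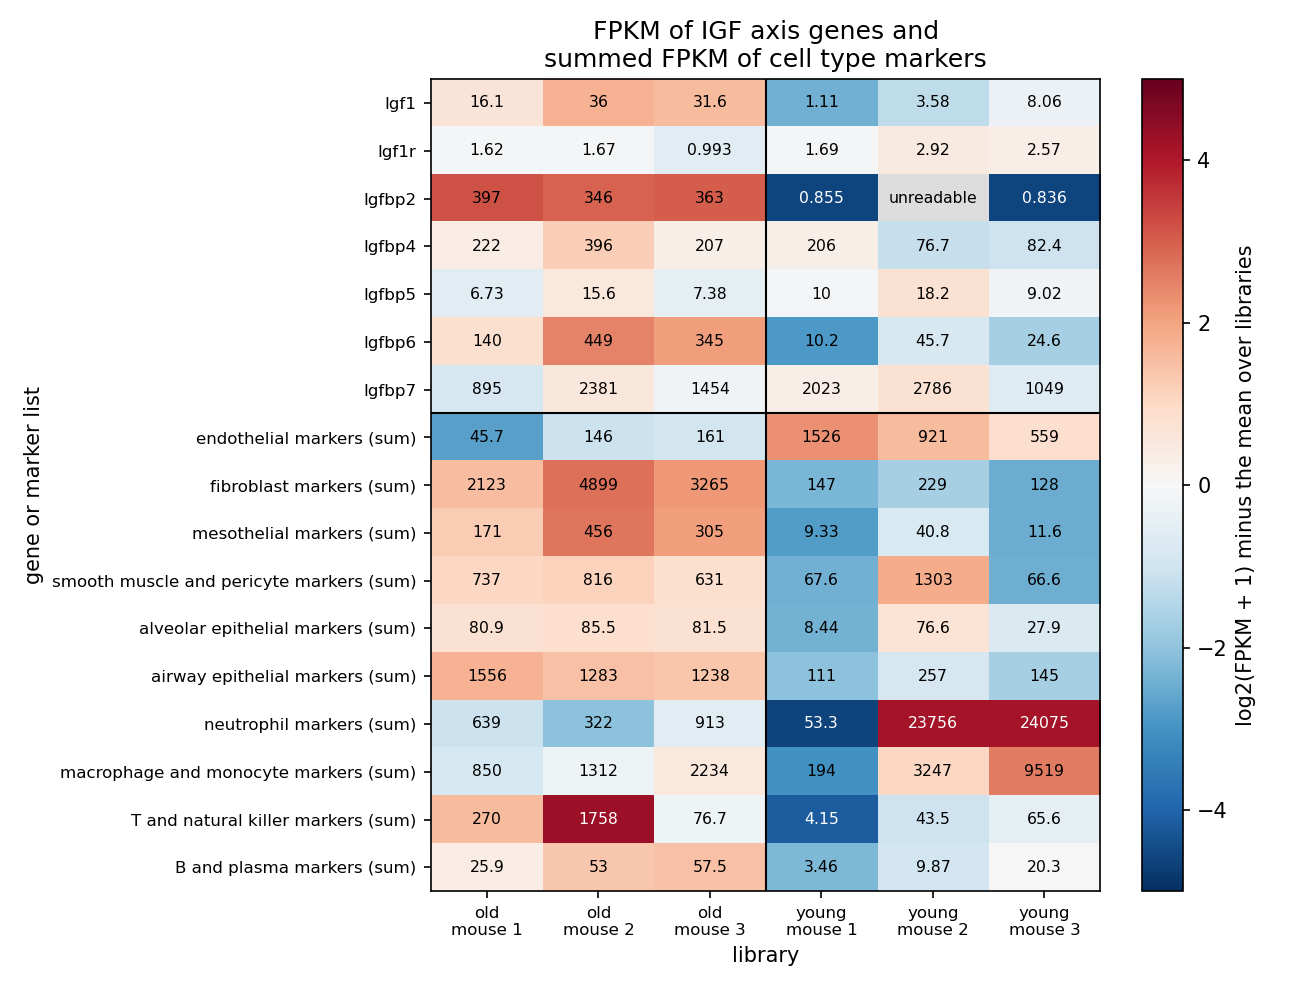
FPKM of 7 IGF axis genes (above the line) and summed FPKM of 10 cell type marker lists (below it) in the 3 old and 3 young libraries, printed in each cell; colours give log2(FPKM + 1) minus the row's mean over libraries. Igf1, Igfbp2 and Igfbp6 are red in old columns, as are the fibroblast and mesothelial sums (2123 to 4899 and 171 to 456 FPKM), and the endothelial sum is blue there (45.7 to 161 FPKM).

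The genes whose profile lay nearest to each IGF axis gene were found by the root mean square difference of centred log2(FPKM + 1) over the 6 libraries, where a lower value is a closer match. Nearest to Igf1 were Serf1 (0.28), Gpm6b (0.40) and Cpq (0.40), against a median of 1.55 over all genes tested. Nearest to Igfbp6 were Myl7 (0.21), Ptgis (0.34) and Olfml3 (0.38), against a median of 2.00. Myl7, an atrial myosin light chain gene, stood at 9.74, 43.2 and 30.1 FPKM (old mice 1, 2 and 3) and at 0.0956 to 2.51 FPKM (young mice). The values follow the age groups of the same 6 libraries.

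For the genes that did not pass, the nearest profiles were Tat (0.18), C1qtnf6 (0.21) and Dpysl3 (0.23) for Igfbp4, Dubr (0.18), Papss2 (0.19) and Tshz2 (0.21) for Igfbp5, and Ier5l (0.15), Pxdc1 (0.16) and Tspan17 (0.19) for Igfbp7. For Igf1r they were Mtln (0.07), Slc35b1 (0.07) and Foxp1 (0.08), against a median of 0.52 over all genes tested. Among the IGF axis genes themselves, the closest pair was Igfbp5 and Igfbp7 (0.29), and Igf1 and Igfbp6 lay at 0.73.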

How the data were processed

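The authors deposited 1 table of FPKM values per library, without counts. The submitters' processing notes name CASAVA 1.7, Bowtie 0.12.2 and mm8 but give them no role. Neither counter nor annotation is given in the sources used here. Identifiers were malformed in 3880 of 24720 rows, and 1527 to 2590 cells per library held text. Values were checked for being a whole number of fragments over a gene length and a library total (tolerance 1e-06 fragments plus a relative 3e-13), which gave the implied depths and lengths; 26 of 19063 candidate rows failed and were left out. The 19037 rows with a known identifier and 6 values that passed were kept, and rows of the same symbol were summed. The implied length equalled the GENCODE M21 exon length for 78.85% of them, so positions are given on GRCm38 and not on mm8. The 5 readable values of Igfbp2 gave whole fragments at its M21 length.

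The filter was a mean of 1 FPKM or more. Tests used limma 3.58.1 in R 4.3.3 (two-sided, trended eBayes without covariates), checked on simulated data. P-values measure the spread between mice. The labels number the mice within each age group, and nothing ties the same number across ages. Members, gene lists and tests were chosen with earlier results of these data known. The text names all 9 genes, listed neighbours past the threshold or else the most abundant of each role group, and the 3 nearest profiles. Sequences are from RefSeq (GRCm38.p6), which held a start region for all 9.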

Additional observations from a re-analysis of the deposited data

How the results depend on the processing

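Among the IGF axis genes and the genes around it that were followed through the settings, the direction changed for Igfbp7, Igf2 and Eif4ebp1. None of these passed. The marker genes and the nearest profiles were not followed in this way. Over all genes, 498 calls became 323 at a pseudocount of 0.01, 223 without a filter, 292 when only genes with a mean of 5 FPKM or more were kept, 126 with a replicate block on the mouse number, and 84 to 395 without 1 library. Same-numbered mice did not deviate together (r = -0.094, -0.003 and 0.01), so the block rests on a shared number alone. Of the IGF axis genes, 2 calls became 1 at pseudocounts of 0.1 and 0.01 and with FPKM scaled by median-ratio size factors, 0 with no filter, and 0 to 1 without 1 library. With the replicate block both calls stood. Of the genes around the axis, 4 calls became 2 with the replicate block and 2 to 5 without 1 library. With limma array weights the calls rose to 686 over all genes and to 6 around the axis. Mapk3 then passed (limma adjusted p = 0.0459). Insr passed in 1 of 16 alternatives (lowest limma adjusted p = 0.0492). The log2 fold change of Igfbp7 ran from -0.70 to 0.04 without 1 library and turned sign without old mouse 1 and came to 0.0 without young mouse 2. That of Igf2 was -0.01 with limma array weights and that of Eif4ebp1 0.01 against young mouse 1 alone. The cause was not tested in any of these. Without 1 library, the mean share of Igfbp7 was 71.5% to 72.8% in old and 90.0% to 92.6% in young mice. That of Igfbp6 was 12.5% to 15.5% in old and 1.01% to 1.83% in young mice. Only 28 and 23 fragments stand behind the readable young values of Igfbp2, so counting error limits the precision there.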

Other observations

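Some genes around the IGF axis lay under the filter on mean FPKM and entered no test. They were picked after their values were seen. Pappa, the protease that cuts IGFBP4, stood at 0.494, 2.45 and 1.18 FPKM (old mice 1, 2 and 3) and 0.0256, 0.199 and 0.243 FPKM (young mice 1, 2 and 3), with no overlap. Igfals, the acid-labile subunit that binds IGF complexes in blood, ranged over 0.528 to 1.25 FPKM (old mice) and 0.159 to 0.397 FPKM (young mice). Igfbp1 stood at 1.98, 1.33 and 0.0731 FPKM (old mice 1, 2 and 3) and 0.592, 0 and 0.660 FPKM (young mice 1, 2 and 3), so the groups overlapped.

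Within a library, the FPKM of Igf1 was 9.93, 21.5 and 31.8 times that of its receptor gene Igf1r in old mice 1, 2 and 3. It was 0.654, 1.23 and 3.14 times as high in young mice 1, 2 and 3. The ratio of Igfbp6 to Igfbp4 was 0.634, 1.13 and 1.66 in old mice 1, 2 and 3, and 0.0498, 0.596 and 0.299 in young mice 1, 2 and 3, so old mouse 1 and young mouse 2 were nearly level. Levels are transcripts only, and no protein was measured.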
